A study of Mus musculus with 36 samples.

Results

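Kidneys of mice fed a high-fat diet were compared with kidneys of mice fed normal chow at ZT20, late in the dark phase (ZT, Zeitgeber time, counts hours from lights on, and mice feed mainly in the dark). The comparison rests on 3 high-fat and 3 chow libraries, 6 of the 36 libraries of a series that sampled both diets at ZT0, 4, 8, 12, 16 and 20, and it was made over every gene measured rather than over a chosen set. All animals were wild-type male C57BL/6J mice on a 12 h light and 12 h dark schedule. They entered the study at 6 weeks of age, and the labels give 16 weeks as the time of harvest. Food was freely available on both diets, no drug or transgene was given to either group, and whole kidney was taken, so tubule, vessel, glomerulus and any attached fat or adrenal tissue enter one RNA sample. The titles number the chow libraries at ZT20 as replicates 1, 3 and 5 and the high-fat libraries as replicates 1, 3 and 4, and per-library values below are given in that order. The labels do not name the animals, so a p-value here measures the spread between libraries. That spread is pooled over the 12 diet and time groups of all 36 libraries, not taken from these 6 alone.

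The kidney cortex is one of the body's gluconeogenic tissues. Its proximal tubule makes glucose from lactate and glutamine, takes up filtered glucose and fructose, and burns fatty acids rather than glucose for its own energy. Lipid synthesis is set largely by the SREBP factors, which are active when membranes lack sterol or when insulin is high, and which turn on the enzymes of sterol and fatty acid synthesis. The circadian clock, a loop in which CLOCK and BMAL1 (Arntl) drive their own repressors PER, CRY and REV-ERB, times many kidney genes, and a high-fat diet is known to alter food timing and clock output in several mouse tissues.

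Levels are FPKM (fragments per kilobase of transcript, scaled to the fragments sequenced), a unit adjusted for gene length and library depth, so levels of different genes can be set side by side. The read numbers are not in the tables. Relative depth, read from the steps between the lowest FPKM values and expressed against the series, was 0.909 to 1.35 in the chow libraries and 0.575 to 1.20 in the high-fat libraries, of which replicate 3 was the shallowest. The defining transcripts of kidney were present in all 6 libraries. Slc34a1, the phosphate transporter of the proximal tubule, lay between 2133 and 2398 FPKM, Umod of the thick ascending limb between 779.8 and 998 FPKM, Slc12a3 of the distal tubule between 157 and 189.9 FPKM, and Nphs1 of the podocyte between 1.61 and 3.36 FPKM. Adrenal transcripts, which appear in 4 chow libraries of other times, were not seen at ZT20: Cyp11b1 and Th were listed at 0 in all 6 libraries and Cyp21a1 did not exceed 0.0600 FPKM. Adipocyte transcripts were uneven. The summed level of 21 adipocyte markers was 849 to 2090 FPKM on chow and 270 to 569 FPKM on the high-fat diet. Cfd and Lpl, both among the changed genes described below, are part of that sum, so it is not separate from those calls. High-fat replicate 4 was nearly free of some of the markers (Adipoq 0.0963 FPKM, Plin1 listed at 0).

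The test was limma on log2(FPKM + 0.5), fitted to the 12 diet and time groups of all 36 libraries, and a gene counts as changed where the Benjamini-Hochberg adjusted p is under 0.05. Differences are high-fat minus chow on that log2 scale, with the standard error (SE), and they understate the change of genes near 0.5 FPKM. The ± after a level is the SD over the 3 libraries of a diet, and the ± after a difference is the SE. Of 11144 genes tested, 29 changed at ZT20, or 0.26% of them, 14 higher on the high-fat diet (0.126%) and 15 lower (0.135%). The unadjusted p was under 0.05 for 719 genes (6.45%). Fold changes of the 29 ran from 1.33 to 50.9 with a median of 1.65, and 9 genes differed by at least 2-fold. In each of the 29, no high-fat library overlapped a chow library; among all genes tested, 677 (6.08%) had every high-fat value above every chow value and 1145 (10.3%) had every one below. The plot of the changed genes by library shows this separation gene by gene.

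**Figure D1:**
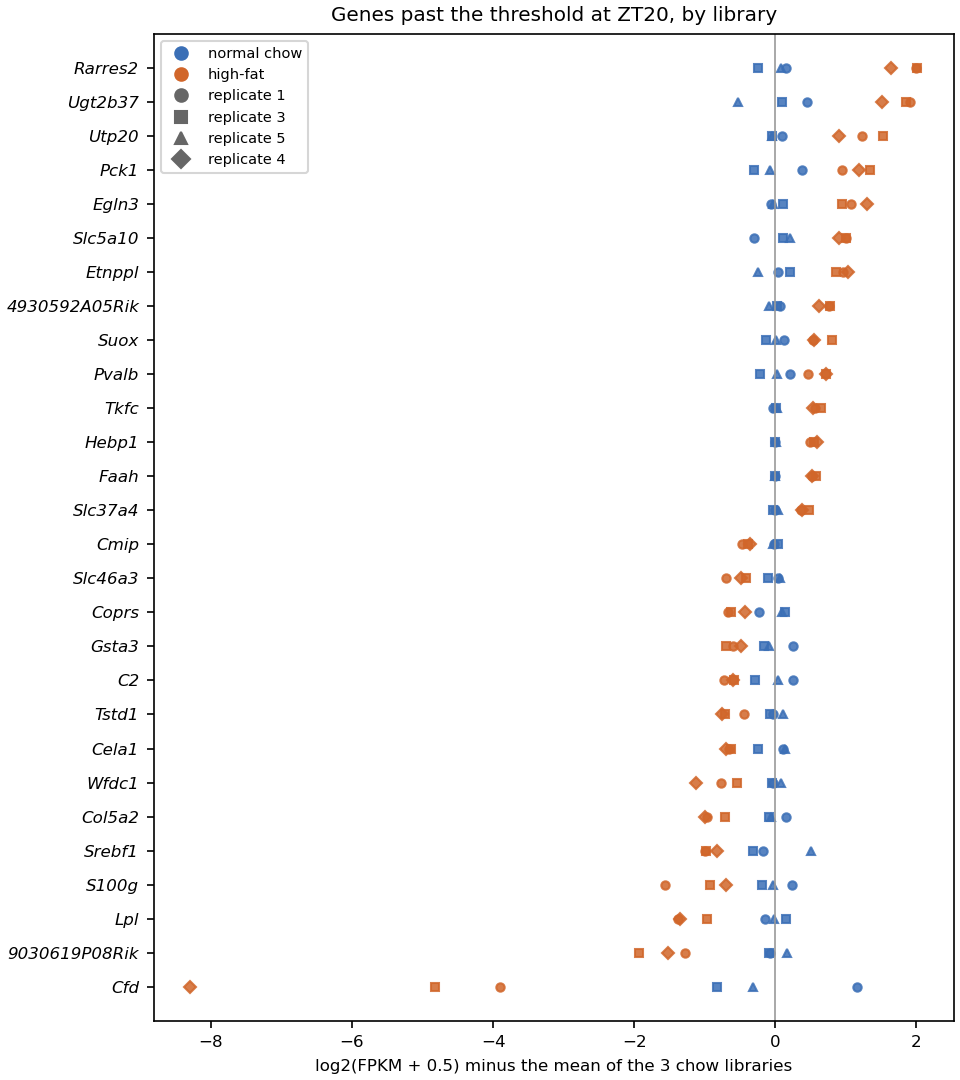
Level of 28 of the 29 changed genes in each ZT20 library, as log2(FPKM + 0.5) minus the mean of the 3 chow libraries (horizontal axis); blue, normal chow, orange, high-fat, marker shape, replicate number. Orange and blue points do not overlap in any row, and Cfd has the widest spread, with high-fat replicate 4 far below the others.

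The number of genes past the threshold depends on single libraries. With chow replicates 1, 3 and 5 left out in turn, 15, 23 and 10 genes passed, of which 12, 16 and 9 were among the 29. With high-fat replicates 1, 3 and 4 left out, 11, 11 and 9 genes passed, all of them among the 29. The 8 genes that passed in each of these 6 fits were Rarres2, Ugt2b37, Utp20, Egln3, Suox and Hebp1 on the higher side and S100g and 9030619P08Rik on the lower side. The other 21 lost the call in at least 1 of them, with highest adjusted p between 0.0784 and 0.404, and 7 lost it in each of the 6 (Slc5a10, Slc37a4, Faah, 4930592A05Rik, Cmip, Slc46a3 and Tstd1). Scaling also moves the balance of direction: 51.7% of the calls were lower on the high-fat diet as deposited, against 37.5% of 16 calls after median ratio rescaling and 39.1% of 23 calls after upper quartile rescaling.

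Of the 29 changed genes, Rarres2 and Ugt2b37 had the largest rises. Rarres2 encodes chemerin, a secreted chemoattractant and adipokine (chromosome 6, 48569696 to 48572789, mm10). Its levels were 71.8, 54.3 and 68.3 FPKM on chow and 258, 261 and 201 FPKM on the high-fat diet. The lowest high-fat library was above the highest chow library, and Rarres2 rose by 1.88 ± 0.32 log2 units, adjusted p = 0.00333. Rarres2 belongs to a list of 18 tested secreted and hormone-regulated tubule genes, in which it was the 1 gene to pass. Of the 18, 7 had non-overlapping groups on the higher side (6.08% over all genes) and 2 on the lower side (10.3%). The list median was 0.14 against -0.02 over all genes. Ttr, the thyroxine and retinol carrier transthyretin, was at 45.3, 94.4 and 119.9 FPKM on chow and 176, 156 and 291 FPKM on the high-fat diet (1.32 ± 0.34 log2 units, adjusted p = 0.138). Prlr, the prolactin receptor, was at 0.210, 0.126 and 0.369 FPKM on chow and 2.58, 1.03 and 2.95 FPKM on the high-fat diet (1.798 ± 0.49 log2 units, adjusted p = 0.173). Both were separated by diet without passing the test. Igf1, the growth factor, was at 1.95 ± 0.640 FPKM on chow and 0.866 ± 0.298 FPKM on the high-fat diet (SD, n = 3 each), the opposite direction, with a difference of -0.83 ± 0.21 log2 units, adjusted p = 0.126.

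Ugt2b37 encodes a UDP-glucuronosyltransferase, an enzyme that conjugates steroids and xenobiotics to glucuronic acid (chromosome 5, 87240493 to 87254804). Its levels were 64.5, 50.5 and 32.5 FPKM on chow and 179, 173 and 136 FPKM on the high-fat diet. All high-fat values were more than the highest chow value, and the rise was 1.76 ± 0.28 log2 units, adjusted p = 0.00263. It lies in a cluster of closely similar genes, so reads could have been divided among them differently in the authors' counting. None of the 10 other tested glucuronosyltransferases passed. Among carboxylesterases, Ces1g was at 9.78 ± 4.32 FPKM on chow and 2.71 ± 0.479 FPKM on the high-fat diet (-1.58 ± 0.42 log2 units, adjusted p = 0.150). Among cytochrome P450s Cyp2d12 was at 96.0 ± 17.3 FPKM on chow and 56.8 ± 6.85 FPKM on the high-fat diet (-0.74 ± 0.23 log2 units, adjusted p = 0.279). No member of either list passed. Of 9 tested carboxylesterases 1 (Ces1d) was separated on the higher side and 2 on the lower, with a median of 0.05. Of 25 tested cytochrome P450s 4 were separated on the higher side, Cyp4a14 and Cyp4b1 among them, and 2 on the lower. The median of the P450 list was 0.09, with 18 differences positive and 7 negative. Over all genes 6.08% were separated on the higher side and 10.3% on the lower.

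A pair of genes of glucose release and a pair of fructose handling rose. Pck1 encodes cytosolic phosphoenolpyruvate carboxykinase, the committed step of gluconeogenesis (chromosome 2, 173153048 to 173159273). Its levels were 611, 383 and 447 FPKM on chow and 903, 1197 and 1072 FPKM on the high-fat diet. The groups did not overlap, chow replicate 1 was the highest chow library, and Pck1 rose by 1.16 ± 0.23 log2 units, adjusted p = 0.0160. Pck1 did not pass without chow replicate 3 or 5 or high-fat replicate 3 or 4 (highest adjusted p = 0.140). Slc37a4 encodes the transporter that carries glucose 6-phosphate into the endoplasmic reticulum for the last step of glucose release. It was at 132, 129 and 137 FPKM on chow and 170.2, 185 and 173 FPKM on the high-fat diet. The rise was 0.41 ± 0.08 log2 units, adjusted p = 0.0186, a small change with tight replicates. Slc37a4 did not pass with any of the 6 libraries left out in turn (highest adjusted p = 0.161). Pck1 and Slc37a4 were the 2 calls among 24 tested genes of gluconeogenesis and glycolysis. Of the 24, 8 had non-overlapping groups on the higher side (6.08% over all genes) and 1 on the lower (10.3%). The list median was 0.07. Pklr, the liver and kidney pyruvate kinase, was at 10.4, 9.06 and 10.97 FPKM on chow and 16.8, 16.9 and 13.9 FPKM on the high-fat diet (0.62 ± 0.15 log2 units, adjusted p = 0.0738), just outside the threshold. Pcx, pyruvate carboxylase, was at 182 ± 18.4 FPKM on chow and 228 ± 12.4 FPKM on the high-fat diet (0.33 ± 0.09 log2 units, adjusted p = 0.176).

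Slc5a10 encodes a sodium-coupled transporter of mannose and fructose in the proximal tubule. It was at 63.2, 84.1 and 90.1 FPKM on chow and 157, 158 and 147 FPKM on the high-fat diet. Every high-fat library was above every chow library, and Slc5a10 rose by 0.97 ± 0.20 log2 units, adjusted p = 0.0303. Slc5a10 did not pass with any of the 6 libraries left out in turn (highest adjusted p = 0.216). Tkfc encodes triokinase, which phosphorylates the glyceraldehyde made from fructose. It was at 146, 151 and 151 FPKM on chow and 219.7, 235 and 217 FPKM on the high-fat diet. The rise was 0.58 ± 0.11 log2 units, adjusted p = 0.0160. Tkfc passed in 1 of the 6 fits with a library left out (highest adjusted p = 0.120). Of 13 tested glucose and urate transporters, 6 had non-overlapping groups, all higher on the high-fat diet (6.08% over all genes), and Slc5a10 alone passed. Slc2a5, the fructose transporter GLUT5, was at 16.4, 18.6 and 19.6 FPKM on chow and 26.9, 25.8 and 26.4 FPKM on the high-fat diet (0.53 ± 0.15 log2 units, adjusted p = 0.188). Slc5a8, a lactate and short-chain acid carrier, was at 24.2, 36.6 and 26.5 FPKM on chow and 40.3, 45.7 and 41.6 FPKM on the high-fat diet (0.56 ± 0.18 log2 units, adjusted p = 0.313). Both were separated by diet without passing the test. Car4, a membrane carbonic anhydrase, was at 257, 239 and 289 FPKM on chow and 159, 182 and 174 FPKM on the high-fat diet (-0.60 ± 0.16 log2 units, adjusted p = 0.139). None of the 18 tested ammonia and acid-base genes passed.

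Srebf1 fell, and most of the fatty acid and sterol synthesis genes tested had negative differences. Srebf1 encodes SREBP1, the transcription factor of fatty acid synthesis (chromosome 11, 60199089 to 60222581). Its levels were 14.0, 12.6 and 22.6 FPKM on chow and 7.73, 7.77 and 8.71 FPKM on the high-fat diet. The high-fat libraries were close together and below all chow libraries, chow replicate 5 was the highest, and Srebf1 fell by 0.94 ± 0.20 log2 units, adjusted p = 0.0368. Srebf1 did not pass without chow replicate 1 or 5 or high-fat replicate 1, 3 or 4 (highest adjusted p = 0.404). It was the 1 call among 22 tested genes of fatty acid synthesis, of which 21 had a negative difference and 13 had all high-fat values below all chow values (10.3% over all genes), with a list median of -0.22. The exception was Acss2, which makes acetyl-CoA from acetate, at 64.5, 78.5 and 70.6 FPKM on chow and 80.0, 82.2 and 85.4 FPKM on the high-fat diet (0.22 ± 0.11 log2 units, adjusted p = 0.817). Fasn, fatty acid synthase, was at 19.3, 9.05 and 16.5 FPKM on chow and 5.86, 5.45 and 4.78 FPKM on the high-fat diet (-1.34 ± 0.44 log2 units, adjusted p = 0.325). Fads1, the delta-5 desaturase, was at 20.2, 15.7 and 19.7 FPKM on chow and 11.04, 10.8 and 11.9 FPKM on the high-fat diet (-0.69 ± 0.16 log2 units, adjusted p = 0.0695). Acaca, acetyl-CoA carboxylase, was at 3.66 ± 0.826 FPKM on chow and 2.00 ± 0.179 FPKM on the high-fat diet (-0.71 ± 0.26 log2 units, adjusted p = 0.449). Several of these enzymes are also abundant in fat, and the adipocyte marker sum was lower on the high-fat diet (270 to 569 FPKM, against 849 to 2090 FPKM). That sum includes Cfd and Lpl, which are among the 29 changed genes, so it is not a measure of fat content separate from those calls. Of 19 tested adipocyte markers, 7 were separated by diet, all lower, and 12 overlapped, Adipoq and Cidec among them. Whether fat content bears on the Srebf1 difference was not tested. With a score of 4 adipocyte markers as a covariate the Srebf1 difference was -0.85 with adjusted p = 0.137.

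Of 21 tested sterol synthesis genes 16 had negative differences, and the list median was -0.35 (-0.02 over all genes). In 9 all high-fat values were below all chow values (10.3% over all genes), and in 1 (Ebp) they were above (6.08%). Fdps was at 43.6, 34.6 and 51.1 FPKM on chow and 25.0, 27.8 and 28.5 FPKM on the high-fat diet (-0.64 ± 0.19 log2 units, adjusted p = 0.255). Fdft1, squalene synthase, was at 10.7, 9.23 and 11.5 FPKM on chow and 6.63, 6.96 and 7.49 FPKM on the high-fat diet (-0.54 ± 0.15 log2 units, adjusted p = 0.173). Both branch enzymes were lower in each high-fat library without passing the test. The sterol sensing and uptake list had the same direction in 14 of 16 tested genes, 7 of them non-overlapping (10.3% over all genes). None passed the threshold.

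Enzymes that burn fat showed no call. None of 38 tested genes of fatty acid oxidation and PPARA targets passed. In 6 all high-fat values were above all chow values (6.08% over all genes) and in 1 they were below (10.3%). Of the differences 27 were positive and 11 negative, and the list median was 0.06. Cyp4a14, a fatty acid hydroxylase, was at 2.72, 1.93 and 7.57 FPKM on chow and 9.81, 9.09 and 24.7 FPKM on the high-fat diet (1.77 ± 0.69 log2 units, adjusted p = 0.521). Acadvl, the very long chain acyl-CoA dehydrogenase, was at 164 ± 8.19 FPKM on chow and 192 ± 10.1 FPKM on the high-fat diet (0.22 ± 0.08 log2 units, adjusted p = 0.454). Of 45 tested oxidative phosphorylation genes 43 had overlapping groups and none passed, with a list median of -0.02. Over all genes 16.3% had groups that did not overlap. Other lipid enzymes did change. Faah, which breaks down anandamide and related fatty acid amides, was at 16.2, 16.2 and 16.3 FPKM on chow and 23.4, 24.4 and 23.4 FPKM on the high-fat diet and rose by 0.53 ± 0.11 log2 units, adjusted p = 0.0368. Etnppl, a lyase of phosphoethanolamine, was at 2.09, 2.39 and 1.63 FPKM on chow and 4.39, 4.06 and 4.62 FPKM on the high-fat diet and rose by 0.95 ± 0.19 log2 units, adjusted p = 0.0238. The high-fat values of each stood clear of the chow values.

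**Figure D2:**
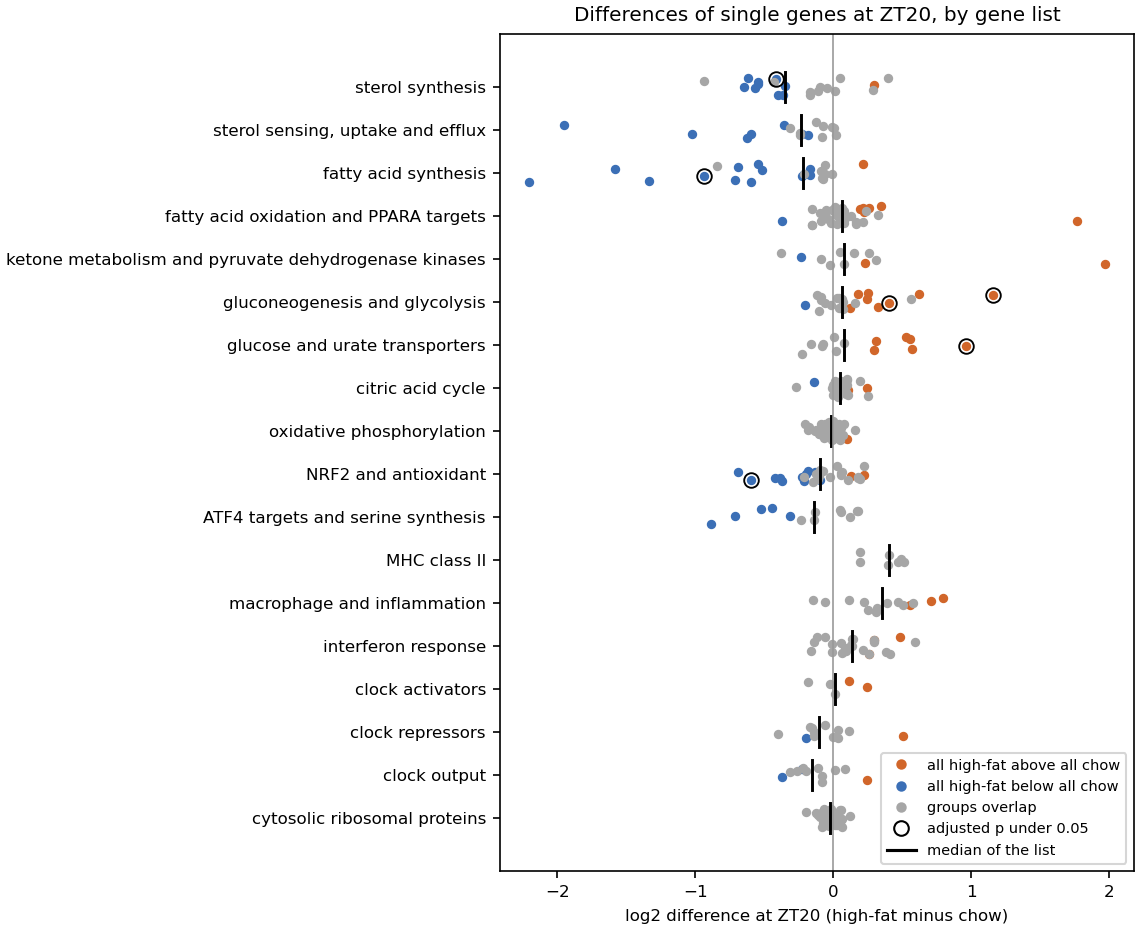
Difference at ZT20 (high-fat minus chow, log2 scale, horizontal axis) of each tested gene of 18 gene lists (rows); orange and blue, groups that do not overlap, grey, groups that overlap, ring, adjusted p under 0.05, bar, list median. Sterol and fatty acid synthesis lie mostly left of 0, MHC class II lies right of 0 with overlapping groups, and ribosomal proteins and oxidative phosphorylation cluster at 0.

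Utp20 gave the smallest p of all genes. It encodes a subunit of the complex that processes the small ribosomal subunit RNA in the nucleolus (chromosome 10, 88746607 to 88826804). Its levels were 2.86, 2.55 and 2.56 FPKM on chow and 6.87, 8.57 and 5.41 FPKM on the high-fat diet. The lowest high-fat library was well above the highest chow library, and Utp20 rose by 1.22 ± 0.14 log2 units, adjusted p = 3.05e-05. None of the 19 other tested ribosome assembly genes passed. In 1 all high-fat values were above all chow values (6.08% over all genes) and in 4 they were below (10.3%). The list median was -0.07. Nop58 was at 6.99 ± 1.04 FPKM on chow and 5.25 ± 0.0587 FPKM on the high-fat diet (-0.37 ± 0.15 log2 units, adjusted p = 0.545). Nop56 was at 11.1 ± 0.774 FPKM on chow and 8.64 ± 1.38 FPKM on the high-fat diet (-0.36 ± 0.14 log2 units, adjusted p = 0.557). Both are core proteins of the methylating nucleolar particles. All 38 tested cytosolic ribosomal protein genes had overlapping groups.

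Hebp1, a heme-binding protein, was at 107, 107 and 109 FPKM on chow and 151, 157 and 163 FPKM on the high-fat diet and rose by 0.54 ± 0.09 log2 units, adjusted p = 0.00333. Its chow libraries were nearly equal. Suox, sulfite oxidase, the last step in breaking down sulfur amino acids, was at 31.8, 26.6 and 29.5 FPKM on chow and 42.7, 51.3 and 43.1 FPKM on the high-fat diet and rose by 0.63 ± 0.10 log2 units, adjusted p = 0.00263. Egln3 encodes PHD3, a prolyl hydroxylase that marks the hypoxia factor HIF for degradation and is itself induced by hypoxia (chromosome 12, 54178981 to 54203860). It was at 1.46, 1.71 and 1.505 FPKM on chow and 3.84, 3.46 and 4.54 FPKM on the high-fat diet and rose by 1.10 ± 0.18 log2 units, adjusted p = 0.00263. The groups of all 3 genes were apart. Of the 14 other tested hypoxia response genes none passed. On the lower side 2 were separated (10.3% over all genes) and on the higher side none (6.08%).

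Promoter windows from RefSeq (assembly GRCm38.p6, 250 bases before to 50 after a start) were available for 20 of the 29 changed genes, 28 windows in all. Windows of Utp20, Hebp1 and Pck1 are shown. Utp20 had the smallest p, Hebp1 was among the genes whose rise held in each fit, and Pck1 was the gluconeogenic gene with the largest rise. Utp20 and Hebp1 are also the 2 changed genes whose windows held the clock E-box CACGTG. Capitals mark the E-box, whose letters read the same on both strands. The Utp20 window is chr10:88826765-88827064 on the minus strand, the Hebp1 window chr6:135168166-135168465 on the minus strand, and the Pck1 window chr2:173152823-173153122 on the plus strand.
Utp20: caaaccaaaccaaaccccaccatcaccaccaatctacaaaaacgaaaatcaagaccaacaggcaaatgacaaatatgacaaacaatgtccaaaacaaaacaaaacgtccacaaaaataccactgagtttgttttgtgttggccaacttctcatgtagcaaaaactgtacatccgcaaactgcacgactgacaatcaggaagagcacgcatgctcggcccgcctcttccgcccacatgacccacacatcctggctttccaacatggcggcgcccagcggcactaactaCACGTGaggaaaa
Hebp1: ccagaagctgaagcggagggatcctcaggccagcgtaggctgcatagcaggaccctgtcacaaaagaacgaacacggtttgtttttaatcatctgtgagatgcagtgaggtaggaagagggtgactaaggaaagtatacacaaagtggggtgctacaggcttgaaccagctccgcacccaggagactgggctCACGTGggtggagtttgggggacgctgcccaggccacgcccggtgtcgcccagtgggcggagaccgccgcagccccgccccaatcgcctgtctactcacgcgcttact
Pck1: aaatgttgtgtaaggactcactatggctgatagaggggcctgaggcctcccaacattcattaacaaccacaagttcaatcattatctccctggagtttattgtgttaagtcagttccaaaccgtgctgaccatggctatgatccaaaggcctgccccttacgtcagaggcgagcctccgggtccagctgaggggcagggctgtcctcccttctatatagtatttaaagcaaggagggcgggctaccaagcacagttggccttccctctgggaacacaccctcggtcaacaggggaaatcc
The E-box lies at positions 288 to 293 of the Utp20 window and 193 to 198 of the Hebp1 window, counted from its 5′ end. Those were the 2 of 28 windows that held it, against 7.15% of 32851 windows over all genes, a like share. The D-box (TTATGTAA or TTACGTAA, both strands) was in none of the 28 windows and in 1.06% of all windows. The sterol element TCACNCCAC (both strands) was likewise in none, against 1.24% of all windows. Among sterol synthesis genes, 1 of the 19 windows of 16 matched genes held the sterol element (Hmgcs1).

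S100g, a mineral handling gene, fell. It encodes calbindin-D9k, an intracellular calcium carrier of the distal nephron under vitamin D control (chromosome X, 162961992 to 162964599). Its levels were 4448, 3315 and 3693 FPKM on chow and 1283, 2001 and 2326 FPKM on the high-fat diet. Its groups did not overlap, high-fat replicate 1 was the lowest, and S100g fell by 1.06 ± 0.17 log2 units, adjusted p = 0.00263. Of the 19 other tested phosphate, vitamin D and calcium genes none passed and 3 were separated, all lower (10.3% over all genes). Slc34a3, a sodium phosphate transporter, was at 28.1, 20.2 and 24.7 FPKM on chow and 19.6, 14.2 and 14.1 FPKM on the high-fat diet (-0.60 ± 0.17 log2 units, adjusted p = 0.176). Cyp24a1, which degrades vitamin D, was at 16.5, 2.04 and 3.99 FPKM on chow and 0.884, 0.533 and 2.17 FPKM on the high-fat diet (-1.89 ± 0.67 log2 units, adjusted p = 0.413), with chow replicate 1 far above the rest and overlapping groups. Pvalb, a calcium buffer of the early distal convoluted tubule, was at 57.1, 42.4 and 50.2 FPKM on chow and 68.2, 82.0 and 81.5 FPKM on the high-fat diet and rose by 0.63 ± 0.13 log2 units, adjusted p = 0.0279. The 4 other tested distal convoluted tubule markers overlapped, among them Slc12a3 at 170.4 ± 17.3 FPKM on chow and 182 ± 6.29 FPKM on the high-fat diet (0.10 ± 0.11 log2 units, adjusted p = 1.00).

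Among antioxidant genes Gsta3 fell. Gsta3, a glutathione transferase, was at 133, 100.2 and 105 FPKM on chow and 73.7, 68.7 and 80.0 FPKM on the high-fat diet and fell by 0.59 ± 0.12 log2 units, adjusted p = 0.0269. It was the 1 call among 30 tested NRF2 and antioxidant genes. Of these, 11 had all high-fat values below all chow values (10.3% over all genes) and 2 above (6.08%). The list median was -0.10. Gclc, which sets the rate of glutathione synthesis, was at 31.0, 45.7 and 32.1 FPKM on chow and 21.9, 22.05 and 21.9 FPKM on the high-fat diet (-0.69 ± 0.22 log2 units, adjusted p = 0.301). Hmox1, heme oxygenase 1, was at 41.1 ± 6.14 FPKM on chow and 30.5 ± 2.10 FPKM on the high-fat diet (-0.42 ± 0.15 log2 units, adjusted p = 0.421). The metallothioneins Mt1 and Mt2 bind zinc and copper and respond to metals and glucocorticoids. Mt1 was at 245, 241 and 271 FPKM on chow and 146, 153 and 160.5 FPKM on the high-fat diet (-0.72 ± 0.19 log2 units, adjusted p = 0.132). Mt2 was at 85.5, 89.6 and 94.5 FPKM on chow and 48.9, 47.7 and 49.2 FPKM on the high-fat diet (-0.88 ± 0.23 log2 units, adjusted p = 0.138). Replicates of each were close and the diets well apart, though neither gene passed. Of 13 tested ATF4 targets and serine synthesis genes none passed and 5 were separated, all lower (10.3% over all genes). Asns, asparagine synthetase, was at 2.94, 2.80 and 2.88 FPKM on chow and 1.11, 1.62 and 1.29 FPKM on the high-fat diet (-0.88 ± 0.27 log2 units, adjusted p = 0.262).

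Of the remaining genes that fell, C2 encodes a complement protease and was at 24.7, 16.9 and 21.4 FPKM on chow and 12.4, 13.6 and 13.6 FPKM on the high-fat diet (-0.64 ± 0.14 log2 units, adjusted p = 0.0494). Col5a2, a fibrillar collagen chain, was at 3.03, 2.49 and 2.55 FPKM on chow and 1.12, 1.44 and 1.09 FPKM on the high-fat diet (-0.89 ± 0.16 log2 units, adjusted p = 0.00904), the 1 call among 24 tested collagen and matrix genes. Wfdc1, a secreted protein with a protease inhibitor fold, was at 2.20, 2.18 and 2.42 FPKM on chow and 1.13, 1.39 and 0.770 FPKM on the high-fat diet (-0.81 ± 0.18 log2 units, adjusted p = 0.0388). Each was below all chow libraries in all high-fat libraries. Of the 24 collagen and matrix genes, 5 had all high-fat values below all chow values (10.3% over all genes) and 0 above (6.08%). Their differences were negative in 18 and positive in 6, with a median of -0.07. Cela1, an elastase, was at 157 ± 22.6 FPKM on chow and 98.5 ± 2.33 FPKM on the high-fat diet (-0.66 ± 0.14 log2 units, adjusted p = 0.0269). Tstd1, a sulfurtransferase-like protein, was at 72.0 ± 4.96 FPKM on chow and 46.1 ± 5.68 FPKM on the high-fat diet (-0.64 ± 0.14 log2 units, adjusted p = 0.0480). Slc46a3, a lysosomal transporter, was at 14.6 ± 0.916 FPKM on chow and 9.95 ± 1.05 FPKM on the high-fat diet (-0.53 ± 0.12 log2 units, adjusted p = 0.0388). The unnamed transcript 9030619P08Rik was at 33.5, 33.4 and 39.9 FPKM on chow and 14.4, 8.89 and 12.0 FPKM on the high-fat diet and fell by 1.58 ± 0.20 log2 units, adjusted p = 4.54e-05, the second smallest p of all genes. The unnamed transcript 4930592A05Rik, at 4.22, 4.11 and 3.75 FPKM on chow and 7.19, 7.23 and 6.42 FPKM on the high-fat diet, rose by 0.72 ± 0.16 log2 units, adjusted p = 0.0388; it overlaps Cpq on the opposite strand, which was at 59.7 FPKM on chow, and the counting is not stated to use strand, so reads of the pair cannot be told apart.

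No MHC class II, macrophage or interferon response gene changed at ZT20. The 7 tested MHC class II genes, which present antigen on macrophages, dendritic and B cells, all had positive differences with overlapping groups, with a median of 0.41. Cd74, the invariant chain, was at 314, 206 and 245 FPKM on chow and 261, 394 and 449.9 FPKM on the high-fat diet (0.51 ± 0.22 log2 units, adjusted p = 0.632), and high-fat replicate 1 lay within the chow range. Of 14 tested macrophage and inflammation genes 3 were separated, all higher (6.08% over all genes), with a median of 0.36. None of 24 tested interferon response genes passed, 3 were separated, all higher (6.08% over all genes), and the median was 0.13. Ctss, cathepsin S, was at 11.7, 8.64 and 8.35 FPKM on chow and 14.2, 19.2 and 17.4 FPKM on the high-fat diet (0.80 ± 0.25 log2 units, adjusted p = 0.273). Cd68, a lysosomal protein of macrophages, was at 4.26 ± 0.473 FPKM on chow and 7.38 ± 1.86 FPKM on the high-fat diet (0.71 ± 0.25 log2 units, adjusted p = 0.410). The summed level of 21 macrophage markers was 160 to 192 FPKM on chow and 189 to 280 FPKM on the high-fat diet. In whole tissue, fewer cells of a type and less RNA per cell cannot be told apart.

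The deepest fall was in a transcript of fat. Cfd encodes adipsin, the complement factor D secreted by adipocytes (chromosome 10, 79890853 to 79892655). Its levels were 589.8, 148 and 212 FPKM on chow and 17.2, 8.90 and 0.344 FPKM on the high-fat diet. All high-fat values were below all chow values, with chow replicate 1 highest and high-fat replicate 4 lowest, and Cfd fell by 5.67 ± 1.23 log2 units, adjusted p = 0.0370. Without high-fat replicate 4 its difference was -4.36 (adjusted p = 0.331), and without chow replicate 1 it was -5.09 (adjusted p = 0.208). Adipoq, adiponectin, a defining marker of adipocytes, had overlapping groups, at 76.4, 14.7 and 18.3 FPKM on chow and 17.0, 13.8 and 0.0963 FPKM on the high-fat diet. Lpl, lipoprotein lipase, which frees fatty acids from circulating lipoproteins and is made in fat, muscle and kidney, was at 270.2, 332 and 294 FPKM on chow and 114, 152 and 117 FPKM on the high-fat diet and fell by 1.23 ± 0.24 log2 units, adjusted p = 0.0160. Its high-fat libraries were alike, replicate 4 included. Lpl did not pass without chow replicate 3 or 5 or high-fat replicate 1 or 4 (highest adjusted p = 0.0951). With the adipocyte score as a covariate the difference was -3.38 (adjusted p = 3.36e-05) for Cfd and -1.01 (adjusted p = 0.0615) for Lpl. Of 19 tested adipocyte markers, 17 had negative differences, 7 were separated on the lower side (10.3% over all genes) and the median was -1.22. With that covariate 15 of the 29 genes still passed, and the other 14, Srebf1 and Lpl among them, did not. Among the genes that did not pass, the log2 difference with the covariate was -0.60 (adjusted p = 0.0548) for Gsta3 against -0.59 without the covariate, 0.54 (adjusted p = 0.0597) for Tkfc against 0.58, 0.36 (adjusted p = 0.0826) for Slc37a4 against 0.41, and 0.82 (adjusted p = 0.137) for Slc5a10 against 0.97.

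No clock gene changed at ZT20. None of the 5 clock activators, 12 repressors and 12 output genes tested passed in the limma fit, and none had an unadjusted p under 0.05. Arntl (BMAL1), near its daily high at this time, was at 6.75, 6.00 and 5.70 FPKM on chow and 6.55, 6.201 and 5.44 FPKM on the high-fat diet (-0.02 ± 0.17 log2 units, adjusted p = 1.00). Nr1d1, the repressor REV-ERB alpha, near its daily low, was at 2.92, 1.70 and 2.84 FPKM on chow and 4.17, 3.66 and 3.19 FPKM on the high-fat diet (0.50 ± 0.27 log2 units, adjusted p = 0.881). Its high-fat values were above all chow values, but the levels were small against the 34.8 ± 7.84 FPKM (SD, n = 3) of chow kidneys at ZT4. Clock was at 2.01 ± 0.0798 FPKM on chow and 2.49 ± 0.304 FPKM on the high-fat diet (0.25 ± 0.23 log2 units, adjusted p = 1.00). Ciart, a repressor, was below 1 FPKM in all 6 libraries (-0.40 ± 0.25 log2 units, adjusted p = 0.989). Among outputs, Tef was at 22.5 ± 2.25 FPKM on chow and 26.6 ± 0.940 FPKM on the high-fat diet (0.24 ± 0.15 log2 units, adjusted p = 0.993). Usp2, a deubiquitinase, was at 37.7 ± 3.05 FPKM on chow and 31.3 ± 3.32 FPKM on the high-fat diet (-0.26 ± 0.14 log2 units, adjusted p = 0.862). Ppard, a fatty acid receptor, was at 30.8 ± 6.61 FPKM on chow and 23.4 ± 1.19 FPKM on the high-fat diet (-0.37 ± 0.21 log2 units, adjusted p = 0.911). The list medians were 0.02, -0.10 and -0.15. Of the activators 2 were separated by diet, both higher, Clock among them. Of the repressors 1 (Nr1d1) was separated on the higher side and 1 on the lower. Of the outputs 1 (Tef) was separated on the higher side and 2 on the lower, Ppard among them. Over all genes 6.08% were separated higher and 10.3% lower. Most clock genes had overlapping groups in the plot of clock and adipocyte genes. A p that misses the threshold does not show that the diets had the same level.

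**Figure D3:**
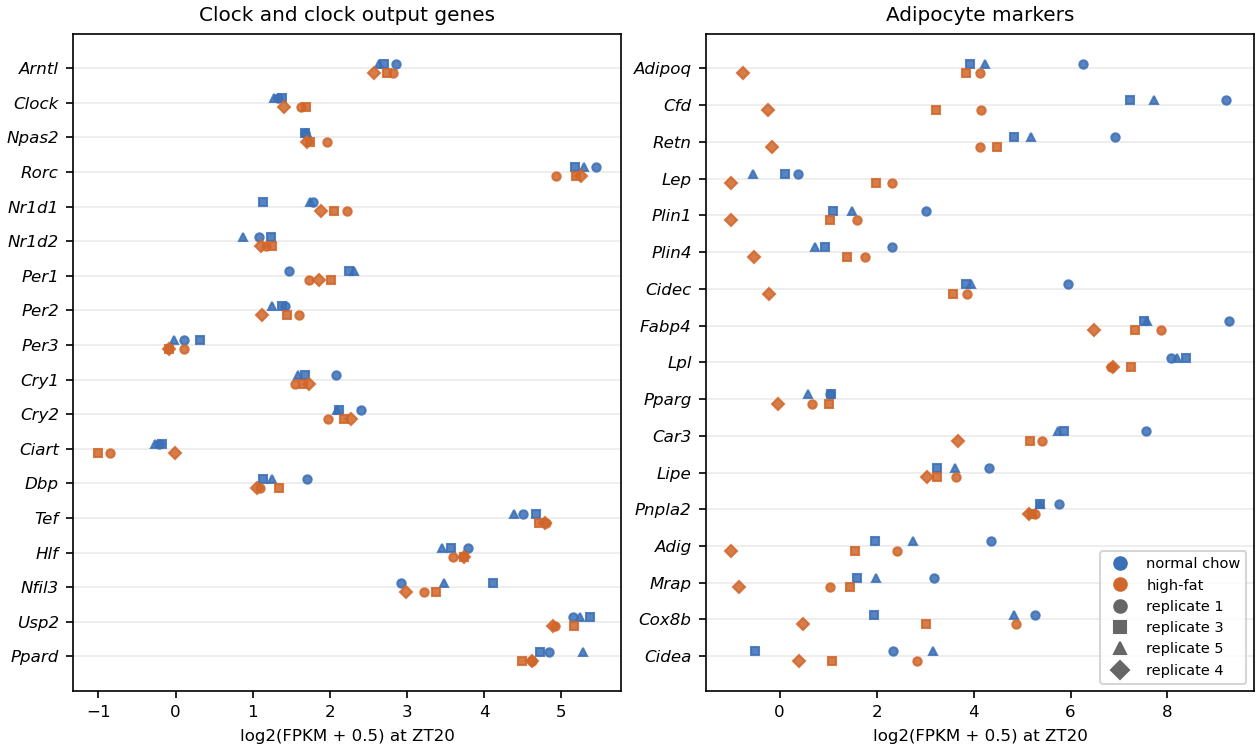
Level at ZT20 of 18 clock and clock output genes (left) and 17 adipocyte markers (right) in each library, as log2(FPKM + 0.5); blue, normal chow, orange, high-fat, marker shape, replicate number. Clock genes of the diets lie close together, while high-fat replicate 4 (diamond) is near the floor for Adipoq, Plin1 and Cidec and chow replicate 1 is the highest for most fat markers.

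Whether the diet difference at ZT20 departs from that at other times was tested as the ZT20 difference minus the mean difference at ZT0, 4, 8, 12 and 16. No gene passed in the limma fit (0 of 11144, 0%), and 106 had an unadjusted p under 0.05 (0.951%). The mean difference of the other 5 times passed for 1514 genes (13.6%). Its estimate uses no ZT20 library, but its SE and p use the spread pooled over all 36 libraries. All 29 genes changed at ZT20 had the same direction in that mean, as did 71.9% of all genes, and 28 of the 29 passed there too. Because the spread is shared, calls at the other times are not independent of those at ZT20. By single times, 12 of the 29 passed at each of the 5 other times and 3 (Cmip, Coprs and 4930592A05Rik) at none. Rarres2 differed by 1.76 ± 0.14 in the mean of the other times, Ugt2b37 by 1.64 ± 0.12, Pck1 by 1.26 ± 0.10, S100g by -1.04 ± 0.08 and 9030619P08Rik by -1.82 ± 0.09, each close to its ZT20 value. The number of genes passing at ZT20 was the smallest of the 6 times, against 177 at ZT0 (1.59%), 179 at ZT4 (1.61%), 37 at ZT8 (0.332%), 41 at ZT12 (0.368%) and 62 at ZT16 (0.556%). The chow libraries with adrenal transcripts belong to ZT0, ZT4 and ZT16, and these counts were not tested against each other.

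**Figure D4:**
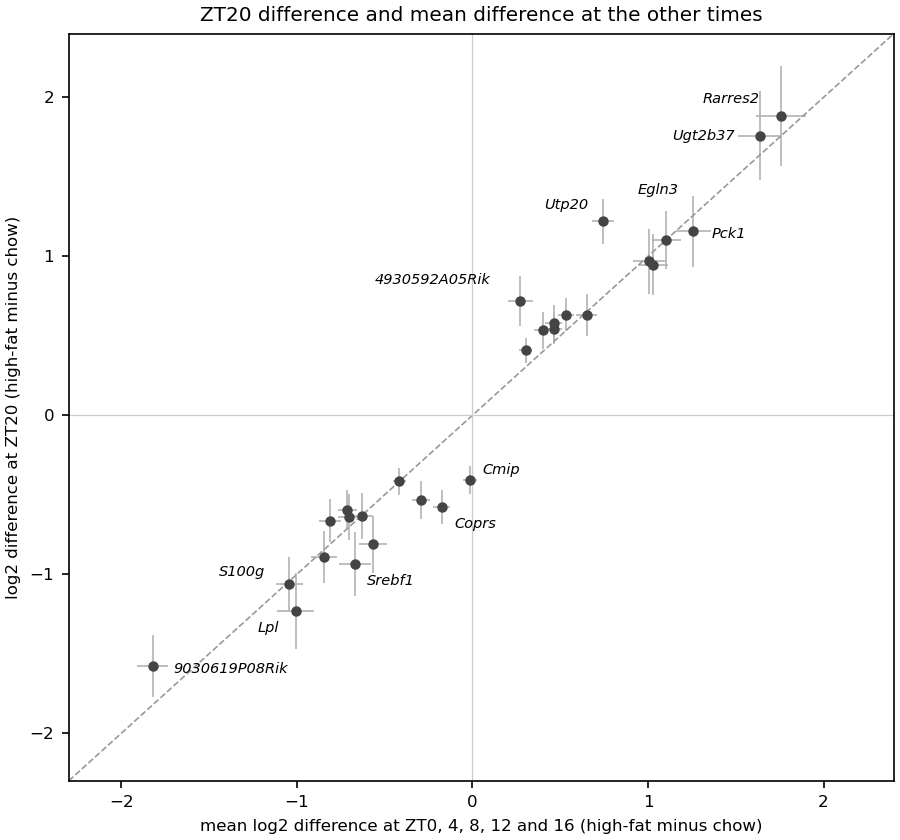
Difference at ZT20 (vertical axis) against the mean difference at the other 5 times (horizontal axis), both high-fat minus chow on the log2 scale with SE, for 28 of the 29 changed genes (Cfd, at -5.67 and -4.98, lies off the axes); dashed line, equal values. Most points lie near the line, while Utp20 and 4930592A05Rik lie above it and Cmip and Coprs below it.

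Of the 29, 4 had an unadjusted p under 0.05 for that departure, and the adjusted p was 1.00 for each of them and for each gene named below. The 29 were chosen by the ZT20 difference, which is part of the departure. Small p-values for the departure are therefore favored among them by that choice. Cmip encodes a signaling adapter known from T cells and podocytes (chromosome 8, 117257064 to 117459430). At ZT20 it was at 33.0, 34.4 and 32.7 FPKM on chow and 23.9, 25.5 and 25.9 FPKM on the high-fat diet. The chow libraries were all above the high-fat libraries, and Cmip fell by 0.41 ± 0.09 log2 units, adjusted p = 0.0368. Cmip did not pass without chow replicate 1, 3 or 5 or high-fat replicate 1, 3 or 4 (highest adjusted p = 0.225). The mean difference at the other times was -0.01 ± 0.04, and the departure was -0.39 ± 0.10 log2 units, unadjusted p = 0.000342. On chow its mean went from 27.0 ± 1.89 FPKM (SD, n = 3) at ZT16 to 33.4 ± 0.909 FPKM at ZT20, while on the high-fat diet it was 23.96 ± 2.16 FPKM and 25.1 ± 1.05 FPKM. At ZT0 it was 30.5 ± 0.369 FPKM on chow and 31.1 ± 2.25 FPKM on the high-fat diet.

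Coprs, which recruits the arginine methyltransferase PRMT5 to histones (chromosome 8, 13884794 to 13890281), was at 21.0, 27.3 and 26.5 FPKM on chow and 15.4, 15.8 and 18.2 FPKM on the high-fat diet and fell by 0.58 ± 0.11 log2 units, adjusted p = 0.0110. Coprs did not pass without chow replicate 3 or 5 or high-fat replicate 1 or 3 (highest adjusted p = 0.0949). Coprs differed by -0.18 ± 0.05 in the mean of the other times, with a departure of -0.40 ± 0.12 log2 units, unadjusted p = 0.00196. Its difference was -0.34 at ZT0, -0.29 at ZT4, 0.05 at ZT8, -0.16 at ZT12 and -0.14 at ZT16. On chow it was at 19.0 ± 2.29 FPKM at ZT8 and 24.9 ± 3.44 FPKM at ZT20, and on the high-fat diet at 19.6 ± 2.56 and 16.5 ± 1.55 FPKM. Utp20 differed by 0.74 ± 0.06 in the mean of the other times, with a departure of 0.48 ± 0.16 log2 units, unadjusted p = 0.00498. Its chow level was 4.79 ± 0.300 FPKM at ZT8 and 2.65 ± 0.176 FPKM at ZT20, and its high-fat level 6.63 ± 0.850 FPKM and 6.95 ± 1.58 FPKM. At ZT16 the Utp20 difference was 1.21 log2 units and at ZT4 0.21. The time courses of these genes are drawn by library.

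**Figure D5:**
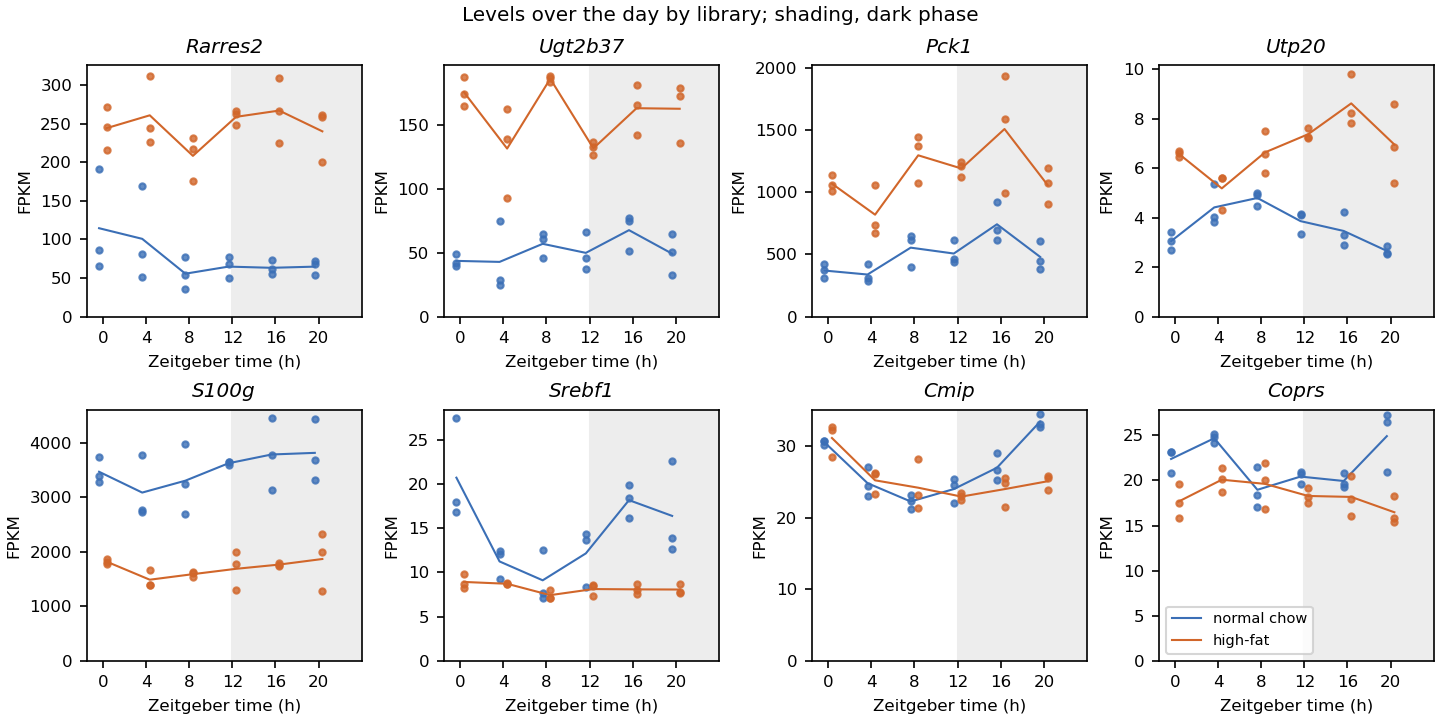
FPKM (vertical axis) by Zeitgeber time in hours (horizontal axis) for 8 genes; blue, normal chow, orange, high-fat, points, single libraries (3 per diet and time), lines, means, shading, dark phase. Rarres2, Ugt2b37, Pck1 and S100g are apart at each time, while Cmip separates at ZT20 and Utp20 is widest apart at ZT16 and ZT20.

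The genes outside the 29 with the smallest unadjusted p in this test did not pass the adjusted threshold. On the more negative side, Nup43, a nuclear pore subunit, was at 5.56, 4.35 and 6.12 FPKM on chow and 3.94, 2.38 and 3.42 FPKM on the high-fat diet, with a departure of -0.66 ± 0.18 log2 units, unadjusted p = 0.000854. Mid1ip1, an activator of acetyl-CoA carboxylase, was at 17.8, 21.2 and 20.3 FPKM on chow and 14.3, 17.1 and 13.2 FPKM on the high-fat diet, with a departure of -0.37 ± 0.12 log2 units, unadjusted p = 0.00514. Each was lower in all 3 high-fat libraries at ZT20, and their mean differences at the other times were 0.0036 ± 0.07 and -0.03 ± 0.05. Ppp1r16b, a phosphatase regulator, departed by -0.38 ± 0.15 log2 units, unadjusted p = 0.0148. Cep85, a centrosome protein, departed by -0.63 ± 0.24 log2 units, unadjusted p = 0.0157. Its groups overlapped at ZT20, where it differed by -0.32 ± 0.22 log2 units, against 0.31 ± 0.10 in the mean of the other times. On the more positive side, Slc2a9, the urate transporter, was at 4.22, 4.19 and 3.51 FPKM on chow and 4.90, 5.51 and 4.58 FPKM on the high-fat diet, with a departure of 0.38 ± 0.13 log2 units, unadjusted p = 0.00782. Srd5a1, a steroid reductase, departed by 0.42 ± 0.15 log2 units, unadjusted p = 0.0115. Paox, a polyamine oxidase, departed by 0.36 ± 0.13 log2 units, unadjusted p = 0.0106. Its groups also overlapped at ZT20, with a difference of 0.12 ± 0.12 log2 units, against -0.24 ± 0.05 in the mean of the other times. Ccdc53, a WASH complex subunit, departed by 0.28 ± 0.09 log2 units, unadjusted p = 0.00664.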

How the data were processed

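Whole-kidney RNA was sequenced from TruSeq v2 libraries, per the labels' protocols. The submitters' processing notes name CASAVA 1.8.2, Bowtie, Cuffnorm and mm10; annotation and strand use are not stated there. The authors deposited FPKM values, 1 table per diet with 24883 rows. Repeated symbols (817 rows) were dropped, and 11144 genes with mean FPKM of at least 1 over the 36 libraries were tested on log2(FPKM + 0.5) with limma 3.58.1 (R 4.3.3), trended variance, 12 group means and 24 residual degrees of freedom, Benjamini-Hochberg adjusted. Fewer reads mean wider error at low levels; relative depth came from 1630 genes whose low FPKM values were whole multiples of a step (94.3% within 0.05). An exact permutation test of 3 against 3 cannot go below p = 0.1 and was not used. The script was tested on simulated data. Gene coordinates are from GENCODE (GRCm38), promoters from RefSeq GRCm38.p6.

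The genes and the 55 gene lists were chosen with earlier results of these data known. Named are the genes past the threshold with a mean of at least 5 FPKM in the higher group (at most 12 per direction). Up to 4 genes per list by p and 6 per direction by p in the test against other times are named too. Of the clock genes, Arntl and most of those whose difference exceeds its SE are named, and the others enter only by counts. Egln3 and Col5a2 are named from their lists; Etnppl, Wfdc1, 9030619P08Rik, 4930592A05Rik, Acss2, Ebp and Hmgcs1 fall outside the rule and were added after their values were seen. Alternatives were other pseudocounts (0.1 and 1), low-level filters, scalings, variance priors, a replicate block, GC removal, an adipocyte covariate and left-out libraries, with ZT0 and ZT4 left out added after seeing the data. Some genes, 1 of the 29 past the threshold among them, are not reported here.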

Additional observations from a re-analysis of the deposited data

How the results depend on the processing

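The 29 calls (14 higher, 15 lower) became 11 (6 and 5) with only the 6 ZT20 libraries fitted, 16 (10 and 6) after median ratio rescaling, 23 (14 and 9) after upper quartile rescaling, and 17 (10 and 7) with the adipocyte covariate. They became 50 (25 and 25) with the GC trend removed, 50 (21 and 29) without the 4 libraries with adrenal transcripts, and 64 (25 and 39) without ZT0 and ZT4, an alternative chosen after seeing the data. With 1 ZT20 library left out they ranged from 9 to 23, with 6 to 10 higher and 3 to 13 lower. The pseudocounts 0.1 and 1, a minimum mean of 5 FPKM, no filter and a robust prior gave 22 to 28 calls. The test against the other times gave 0 calls in each alternative except 1 (Mir6244) without the adrenal libraries. Rarres2, Hebp1, 9030619P08Rik and Egln3 passed in each alternative that tested them. No called gene changed direction under any alternative; Arntl, near 0 in the main analysis, was 0.0084 after upper quartile rescaling, and -0.073 to 0.0505 with 1 library left out (0.0444 without chow replicate 1). The diets share only replicate numbers 1 and 3 at ZT20, and residuals of same-numbered libraries correlated at 0.02 and -0.30, so the numbers were not taken as pairs; with the replicate block 14 genes passed (7 and 7), and with GC removal and the replicate block 40 (22 and 18). The cause of these shifts was not tested. Depth limits the low genes, and with 3 libraries per diet a difference that misses the threshold is not shown to be absent.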

Other observations

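Amino acid and cofactor genes beyond those above held no call at ZT20. Slc7a7, which exports basic amino acids across the basolateral membrane of the tubule, was at 88.9, 56.0 and 74.3 FPKM on chow and 43.7, 39.6 and 42.4 FPKM on the high-fat diet, with a difference of -0.77 ± 0.19 log2 units, adjusted p = 0.0840, the lowest adjusted p of 20 tested amino acid transporters. Bcat2, the first step of branched-chain amino acid breakdown, was at 70.4, 55.0 and 71.7 FPKM on chow and 46.3, 47.1 and 52.5 FPKM on the high-fat diet (-0.42 ± 0.15 log2 units, adjusted p = 0.392). Every high-fat library was below every chow library for both genes. The 20 tested branched-chain genes had a median difference near 0 (-0.0019), with 16 overlapping, while 16.3% of all genes did not overlap. Acmsd, which diverts tryptophan breakdown away from NAD, was at 31.4, 20.1 and 21.8 FPKM on chow and 16.0, 14.9 and 13.5 FPKM on the high-fat diet (-0.68 ± 0.30 log2 units, adjusted p = 0.669). Qprt, which makes the NAD precursor, was at 45.5, 53.6 and 46.8 FPKM on chow and 35.4, 36.5 and 40.2 FPKM on the high-fat diet (-0.37 ± 0.12 log2 units, adjusted p = 0.329).

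No salt or water transport gene tested changed at ZT20. Of 27 tested genes of the loop, distal tubule and collecting duct, 21 had overlapping groups and none passed, with a median of -0.02. Over all genes 16.3% did not overlap. Aqp2, the vasopressin-driven water channel, was at 92.4, 94.6 and 106 FPKM on chow and 59.7, 75.8 and 82.7 FPKM on the high-fat diet (-0.43 ± 0.30 log2 units, adjusted p = 1.00), without overlap. Of 10 tested injury markers none passed, and Spp1, osteopontin, was at 377, 242 and 326 FPKM on chow and 205, 228 and 178 FPKM on the high-fat diet (-0.61 ± 0.28 log2 units, adjusted p = 0.689). Alas2, the heme enzyme of red cell precursors, was at 4.19, 4.70 and 5.77 FPKM on chow and 2.97, 1.97 and 2.20 FPKM on the high-fat diet (-0.91 ± 0.29 log2 units, adjusted p = 0.294), again without overlap. Hspa8, a constitutive chaperone, was at 613, 882 and 935 FPKM on chow and 1135, 1191 and 928 FPKM on the high-fat diet (0.44 ± 0.18 log2 units, adjusted p = 0.590), with overlapping groups.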
